A study of Mus musculus with 12 samples.

Results

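The genes described here are 10 immediate early genes measured in mouse liver, Egr1, Fos, Fosb, Jun, Junb, Atf3, Ier2, Btg2, Dusp1 and Zfp36. They were chosen by name, and their probes were found through the RefSeq accession printed with each probe, among 32524 genes of the array. Each had a single probe design. Of the 10 genes, 9 had a signal well above background on all 12 arrays and were tested among 16916 genes. The remaining one, Fos, was well above background on 11 arrays and not on that of Floxed 2, so its values come from a fit without that filter.

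The livers came from male C57BL/6 mice aged 30 weeks, kept on chow with 20% casein. The 6 LKO mice carried Alb +/Cre and Phgdh flox/flox, so that Cre, driven by the albumin promoter, was directed to hepatocytes, while the 6 littermate Floxed mice carried Phgdh flox/flox without Cre. Both groups thus share the floxed allele, and cells of the liver other than hepatocytes were not targeted. Each mouse gave 1 single-color array on 1 of 3 slides, with Floxed 1 to 4 on slide 1, Floxed 5 and 6 with LKO 1 and 2 on slide 2, and LKO 3 to 6 on slide 3.

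Phgdh, the targeted gene and the first enzyme of de novo serine synthesis, had a mean log2 normalized intensity of 5.18 in Floxed and 4.70 in LKO livers, a difference of -0.48 (SE 0.18, called by limma at an unadjusted p below 0.05, adjusted p = 0.451). The livers labelled LKO 1 and LKO 2 had Phgdh levels of 5.07 and 5.30, within the Floxed range of 4.81 to 5.50, whereas LKO 3 to 6 lay between 4.23 and 4.66. LKO 3 to 6 are the livers of slide 3, which holds no Floxed liver. On slide 2, Floxed 5 and 6 had 5.15 and 5.33, beside LKO 1 and LKO 2. For Phgdh the slide and the deletion therefore cannot be told apart. It is not known whether the Phgdh probe lies in the deleted part of the gene. Results that rest on the livers labelled LKO 1 and LKO 2 are therefore given with and without them. The 75th percentile of intensity ranged from 239 to 473 over the arrays, no spot of the 10 genes was saturated, and all 12 hepatocyte markers listed, such as Alb, were well above background throughout.

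Immediate early genes are switched on within minutes of a signal and without new protein synthesis. Growth factor, cytokine and stress signals reach them through kinases of the ERK, p38 and JNK families, which act on factors that are already present, such as serum response factor with its ternary complex partners and CREB. Their messages are short-lived. In liver they are known for a surge after partial hepatectomy, injury or hormonal stimulation. The question here was whether the 10 genes move together with Egr1 from liver to liver, and how they differ between the genotypes. In a bulk sample, fewer cells of a type and less RNA per cell cannot be told apart.

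The promoters of 4 genes are shown because these 4 had a called slope on Egr1 across livers. RefSeq promoter entries of build GRCm38.p6 were found for 8 of the 10 genes, and none is given here for Egr1 and Ier2. The 250 bases before the annotated start are printed 5′ to 3′ on the strand of the gene, for Junb at chr8:84978749-84978998, Zfp36 at chr7:28379229-28379478, Btg2 at chr1:134079156-134079405 and Jun at chr4:95052223-95052472, all on the minus strand. Capitals mark a match to 1 of 5 motifs, searched on both strands.
Junb: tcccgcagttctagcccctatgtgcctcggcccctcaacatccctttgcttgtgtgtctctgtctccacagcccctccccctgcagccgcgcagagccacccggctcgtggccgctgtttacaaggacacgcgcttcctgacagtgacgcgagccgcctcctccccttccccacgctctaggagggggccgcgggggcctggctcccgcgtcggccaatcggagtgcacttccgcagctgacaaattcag
Zfp36: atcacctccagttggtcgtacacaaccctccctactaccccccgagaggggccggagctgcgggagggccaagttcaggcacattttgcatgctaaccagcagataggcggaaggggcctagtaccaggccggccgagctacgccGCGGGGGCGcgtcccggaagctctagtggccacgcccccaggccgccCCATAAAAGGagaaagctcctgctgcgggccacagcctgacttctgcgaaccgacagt
Btg2: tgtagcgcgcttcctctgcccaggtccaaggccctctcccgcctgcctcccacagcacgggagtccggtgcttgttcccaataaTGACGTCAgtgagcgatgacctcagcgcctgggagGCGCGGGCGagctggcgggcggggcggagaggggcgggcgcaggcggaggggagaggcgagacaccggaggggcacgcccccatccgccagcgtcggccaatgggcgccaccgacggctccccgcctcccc
Jun: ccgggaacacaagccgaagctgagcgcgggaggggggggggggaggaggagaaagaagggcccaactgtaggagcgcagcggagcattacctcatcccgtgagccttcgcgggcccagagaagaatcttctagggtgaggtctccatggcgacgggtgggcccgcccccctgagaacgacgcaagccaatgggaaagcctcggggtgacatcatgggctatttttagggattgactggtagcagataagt
The motifs were the CArG box bound by serum response factor, the cyclic AMP response element TGACGTCA, the AP-1 site TGANTCA, the Egr site GCGNGGGCG and the TATA box TATAAA. None of these motifs overlapped another in the promoters shown. A CArG box was found in Zfp36, its first base 58 bases before the start, against 1.47% of 32851 promoters of that length. An Egr site was found in Zfp36, 105 bases before the start, and in Btg2, 131 bases before it, as well as in Fosb, 50 bases before it, against 4.70% of all promoters. Btg2 and Dusp1 held a cyclic AMP response element, 166 and 143 bases before the start, against 1.55% of promoters. A TATA box was found in Fos (12.4% of promoters), and the AP-1 letters were in none of the 8 (6.75% of promoters). These letters were not in the windows of Junb and Jun.

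All 10 genes had a higher mean in LKO than in Floxed livers, and 3 of the 9 tested ones, Egr1, Btg2 and Ier2, were called higher at an unadjusted limma p below 0.05. Of 16915 genes with a fit, 8.35% were called, 4.92% higher and 3.43% lower in LKO. None of the 10 genes was called lower. The median difference over the 9 tested genes was 0.50 on the log2 scale, and over all genes it was -0.0035, with 48.8% of genes above 0. After Benjamini-Hochberg adjustment over all genes 0 passed in the limma fit on all livers, against 1413 at the unadjusted threshold. The smallest adjusted p was 0.132. Every call between the genotypes below is therefore at the unadjusted threshold, with the adjusted p beside it.

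**Figure D1:**
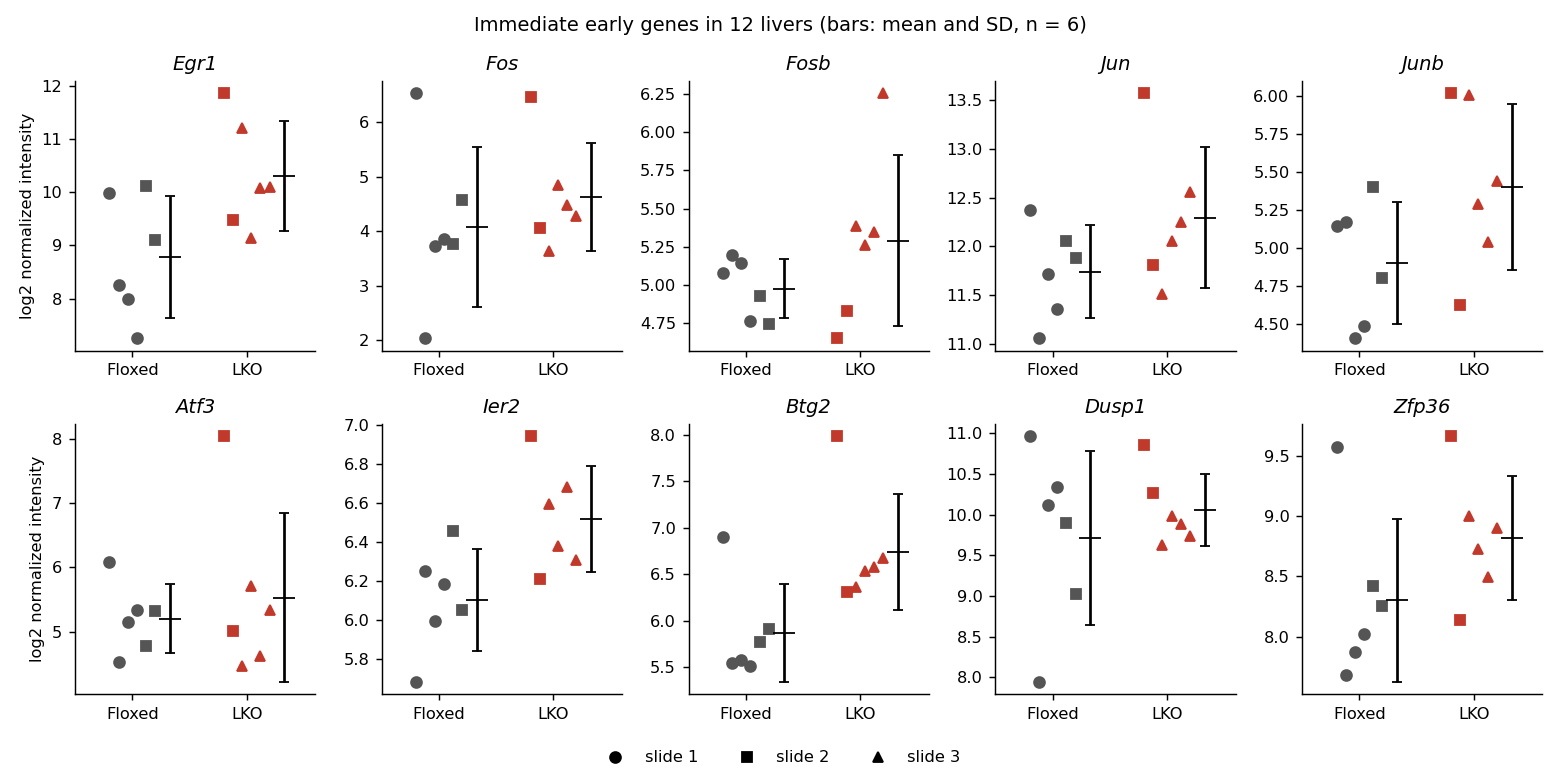
Log2 normalized intensity (vertical axis) of each gene in 6 Floxed (grey) and 6 LKO (red) livers. Points are livers, their shape gives the slide, and bars give the mean and SD. The liver labelled LKO 1 was the highest of the 12 for 7 genes, and Egr1 ranged from 7.25 to 10.11 in Floxed and from 9.13 to 11.85 in LKO livers.

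Egr1 encodes a zinc finger transcription factor of the early growth response family. Its log2 normalized intensity in Floxed livers ran from 7.25 through a median of 8.68 to 10.11, and in LKO livers from 9.13 through 10.09 to 11.85. The groups overlapped, and 2 LKO livers, LKO 1 and LKO 3, lay above every Floxed liver, while 4 Floxed livers lay below every LKO liver. The difference was 1.53 (SE 0.56, 2.88-fold, limma adjusted p = 0.440, exact permutation p = 0.0346, two-sided, 6 against 6). On slide 2, the only slide with both genotypes, the mean of LKO 1 and LKO 2, whose Phgdh lay in the Floxed range, was 1.06 above that of the 2 Floxed livers. LKO 1 was at 11.85 and LKO 2 at 9.47, beside 10.11 in Floxed 5 and 9.11 in Floxed 6. LKO 2 thus lay between the Floxed livers of that slide, and LKO 1 alone lay above both. With slide as a fixed term the difference was also 1.06 and was not called. Every difference between the genotypes within slide 2 or with slide as a fixed term, for this and the other genes, rests on these 2 LKO livers alone. Without the livers labelled LKO 1 and LKO 2 the Egr1 difference was 1.35 (SE 0.58) and called by limma (adjusted p = 0.344). Its exact permutation p was 0.0667 over 210 arrangements. The LKO livers left are then all on slide 3, which holds no Floxed liver. For every gene, slide and genotype cannot be told apart without these 2 livers.

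Egr1 varied more between mice of a genotype than most of the group, with an SD of 1.14 in Floxed and 1.04 in LKO livers. Over all 12 livers it spanned 4.60 log2 units. Fos spanned 4.50, Atf3 3.57 and Dusp1 3.01, whereas Ier2 spanned 1.26.

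Fos, Fosb, Jun and Junb encode subunits of the dimeric factor AP-1. Fos ran from 2.03 through 3.81 to 6.53 in Floxed and from 3.63 through 4.38 to 6.47 in LKO livers. Its highest values were those of Floxed 1 and LKO 1, and its lowest was Floxed 2, the array on which its spots were not well above background. The difference of 0.55 had a 95% interval from -0.95 to 2.04 and was not called (exact permutation p = 0.433). Single livers moved it, to 0.14 without Floxed 2, 0.18 without LKO 1 and 1.04 without Floxed 1, and it was called in none of these.

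Jun, the partner of Fos in the classical AP-1 dimer, ran from 11.05 through 11.80 to 12.38 in Floxed and from 11.51 through 12.15 to 13.57 in LKO livers. LKO 1 and LKO 6 lay above all Floxed livers. The difference was 0.55 (95% interval -0.13 to 1.23, exact permutation p = 0.152), and it was 0.35 without LKO 1 and LKO 2. Without LKO 3 it was 0.71 and called by limma.

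Junb, a Jun family member with weaker activating function, ran from 4.41 through 4.97 to 5.40 in Floxed and from 4.63 through 5.36 to 6.02 in LKO livers. LKO 1, LKO 3 and LKO 6 exceeded the highest Floxed liver. The difference was 0.50 (95% interval -0.036 to 1.04, exact permutation p = 0.102). Without LKO 1 and LKO 2 it was 0.54 and called by limma (adjusted p = 0.342), with an exact permutation p of 0.0857. It was also called without Floxed 5, without LKO 2 and without LKO 5, at 0.60, 0.66 and 0.58.

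Fosb, a Fos relative, ran from 4.74 through 4.999 to 5.20 in Floxed and from 4.65 through 5.30 to 6.26 in LKO livers. The 4 LKO livers of slide 3 lay above every Floxed liver, and both LKO livers of slide 2 lay within the Floxed range or below it. The difference was 0.31 (95% interval -0.16 to 0.79, exact permutation p = 0.232). It was -0.095 within slide 2 and 0.59 without LKO 1 and LKO 2 (exact permutation p = 0.00952, adjusted p = 0.162), so for Fosb the slide and the genotype cannot be told apart.

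**Figure D2:**
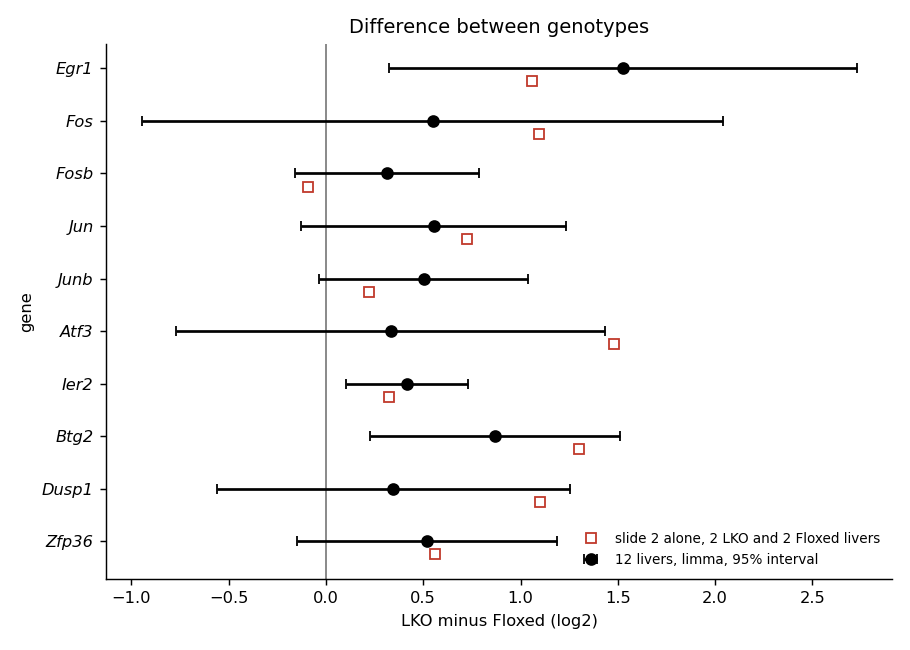
Difference between LKO and Floxed livers on the log2 scale for each gene (vertical axis). Black points give the fit on 12 livers with its 95% interval, and open squares the difference within slide 2 alone. The intervals of Egr1, Ier2 and Btg2 exclude 0, and the slide 2 value was below 0 for Fosb alone, at -0.095.

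Atf3, a stress-responsive factor of the ATF/CREB family, ran from 4.53 through 5.23 to 6.08 in Floxed and from 4.47 through 5.18 to 8.03 in LKO livers. The liver labelled LKO 1 stood alone at the top, and the other LKO livers lay within the Floxed range or just below it. The difference of 0.33 (95% interval -0.77 to 1.43, exact permutation p = 0.697) became -0.17 when LKO 1 and LKO 2 were left out.

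Ier2, an immediate early nuclear protein, ran from 5.69 through 6.12 to 6.45 in Floxed and from 6.21 through 6.49 to 6.94 in LKO livers. LKO 1, LKO 3 and LKO 5 exceeded all Floxed livers, and 4 Floxed livers lay below all LKO livers. The difference was 0.42 (SE 0.15, adjusted p = 0.419, exact permutation p = 0.0216). It was 0.32 within slide 2 and 0.39 without LKO 1 and LKO 2 (exact permutation p = 0.0381). Without Floxed 1 and LKO 1, a pair chosen after the values of all livers were seen, it was 0.25 and no longer called.

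The last 3 genes encode proteins that restrain signals or messages. Btg2, an antiproliferative protein that promotes mRNA deadenylation, ran from 5.52 through 5.67 to 6.90 in Floxed and from 6.30 through 6.55 to 7.98 in LKO livers. The groups overlapped through 1 liver, Floxed 1, and the other 5 Floxed livers lay below every LKO liver. The difference was 0.87 (SE 0.30, 1.83-fold, adjusted p = 0.410, exact permutation p = 0.0152). It was 1.30 with slide as a fixed term, where Btg2 was the one gene of the group still called and where LKO 1 and LKO 2 alone carry the value. With that term no gene passed adjustment, the smallest adjusted p over all genes being 0.310. The Btg2 difference was 0.67 without LKO 1 and LKO 2 (exact permutation p = 0.0476).

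Dusp1, a phosphatase that inactivates the MAP kinases, ran from 7.95 through 10.01 to 10.96 in Floxed and from 9.63 through 9.94 to 10.85 in LKO livers. The LKO livers lay inside the Floxed range. The difference was 0.35 (95% interval -0.56 to 1.25, exact permutation p = 0.502) and 0.098 without LKO 1 and LKO 2.

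Zfp36, which encodes tristetraprolin, a protein that binds AU-rich messages and speeds their decay, ran from 7.68 through 8.14 to 9.57 in Floxed and from 8.13 through 8.81 to 9.66 in LKO livers. LKO 1 and Floxed 1 were the highest livers, and 3 Floxed livers lay below every LKO liver. The difference was 0.52 (95% interval -0.15 to 1.19, exact permutation p = 0.169). It was called by limma at 0.77 without Floxed 1 and at 0.60 without Floxed 1 and LKO 1.

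Without the livers labelled LKO 1 and LKO 2, 5 of the 9 tested genes were called higher, namely Egr1, Fosb, Junb, Ier2 and Btg2, against 7.08% of all genes.

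**Figure D3:**
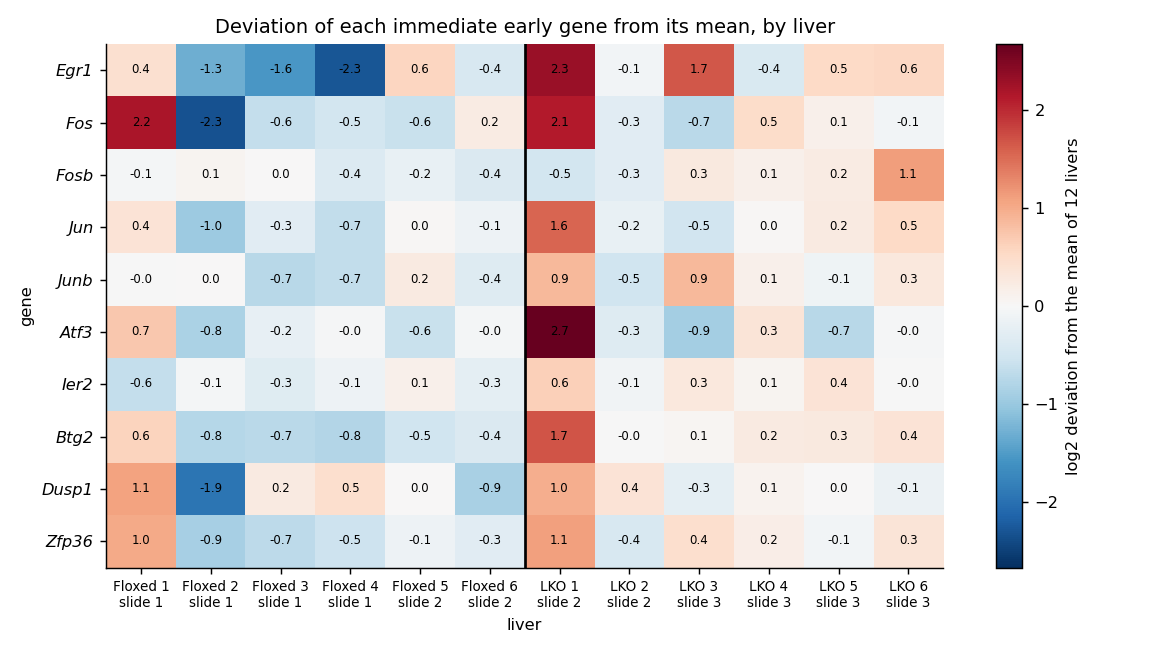
Deviation of each gene (rows) from its mean over 12 livers on the log2 scale, by liver (columns, Floxed left of the line, LKO right). Red is above and blue below the mean. The liver labelled LKO 1 is above the mean for 9 genes and Floxed 1 for 7, while Floxed 2 is above it for 2.

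The liver labelled LKO 1 was above the mean for 9 of the 10 genes, by 1.34 log2 units on average, and was the lowest liver for Fosb. Floxed 1 was above the mean for 7 genes, by 0.57 on average, and was among the 3 highest livers for 6 of them although it was the lowest for Ier2. Floxed 2 was the lowest of all livers for 4 genes, with a mean deviation of -0.90. LKO 2 was above the mean for 1 gene, and its mean deviation was -0.19.

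All 9 other genes correlated positively with Egr1 over the 12 livers, with a median Pearson r of 0.60 against 0.011 over 16913 tested genes. Junb, Btg2, Zfp36 and Jun followed Egr1 most closely, and Fosb hardly at all. In a limma fit with the level of Egr1 beside genotype, 4 of the 8 other tested genes had a called slope, all positive, against 2.88% of genes called, 1.02% with a positive and 1.86% with a negative slope. None was negative. No slope of any gene passed adjustment, the smallest adjusted p being 0.999. With replicate number as a block in the fit, only Junb of the group kept a called slope. The slopes of Btg2, Zfp36 and Jun were then 0.031, 0.27 and -0.10.

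**Figure D4:**
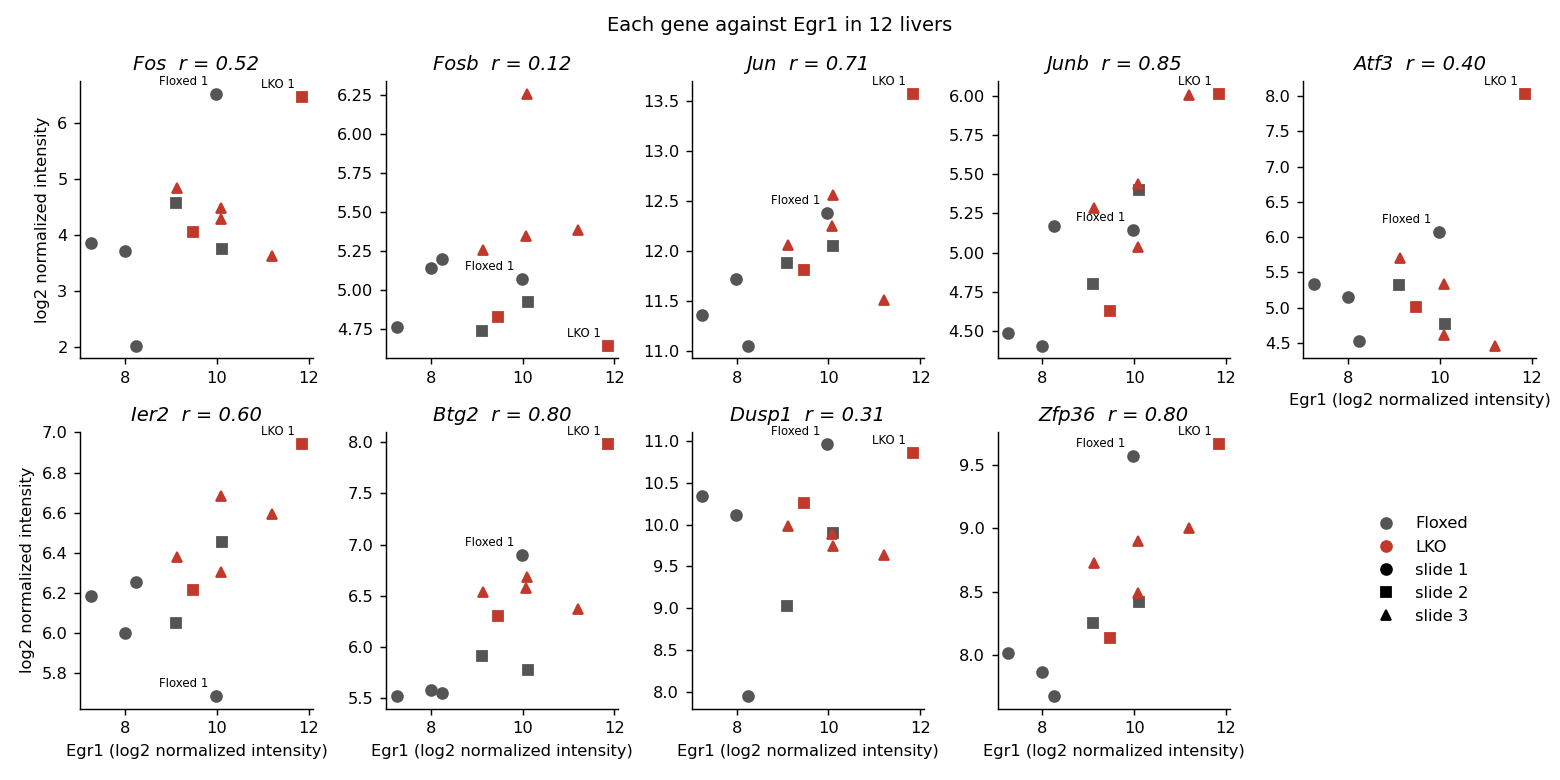
Log2 normalized intensity of each gene (vertical axis) against that of Egr1 (horizontal axis) in 12 livers, Floxed in grey and LKO in red, with the shape giving the slide. Points rise from left to right for Junb (r = 0.85), Btg2 (0.80) and Zfp36 (0.80), whereas Fosb (0.12) shows no such order.

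Junb had the highest correlation with Egr1, with r = 0.85 (permutation p = 0.000650) and Spearman's rho = 0.83 (permutation p = 0.00141). Only 3 of the other tested genes, 0.0177%, had an r as high. It was 0.78 among Floxed livers (exact permutation p = 0.0889, n = 6) and 0.83 among LKO livers (exact permutation p = 0.0458, n = 6). The slope was 0.35 log2 units per log2 unit of Egr1 (SE 0.083, limma p = 0.00121, n = 12, adjusted p = 0.999). Within slides r was 0.82, without the livers labelled LKO 1 and LKO 2 it was 0.84, and without LKO 1 and Floxed 4, the 2 livers farthest from the median of Egr1, it was 0.74.

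Zfp36 had r = 0.80 (permutation p = 0.00193) and rho = 0.80 (permutation p = 0.00235), and 8 genes, 0.0473%, had an r at least as high. It was 0.71 among Floxed livers (exact permutation p = 0.0819, n = 6) and 0.82 among LKO livers (exact permutation p = 0.0403, n = 6). The slope was 0.42 (SE 0.11, limma p = 0.00231, n = 12, adjusted p = 0.999). The correlation was 0.84 within slides, 0.74 without LKO 1 and LKO 2, and 0.72 without the 2 farthest livers.

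Btg2 had r = 0.80 (permutation p = 0.00125) and rho = 0.71 (permutation p = 0.0117), and 7 genes, 0.0414%, had an r at least as high. The r was 0.68 among Floxed livers (exact permutation p = 0.1, n = 6) and 0.69 among LKO livers (exact permutation p = 0.107, n = 6). The slope was 0.36 (SE 0.12, limma p = 0.00896, n = 12, adjusted p = 0.999). The correlation was 0.77 within slides and 0.62 without the 2 farthest livers. Without the liver labelled LKO 1 the slope was 0.22 and no longer called (limma p = 0.0668, n = 11).

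Jun had r = 0.71 (permutation p = 0.0104) and rho = 0.62 (permutation p = 0.0368), with 0.296% of genes at least as high. The r was 0.80 among Floxed livers (exact permutation p = 0.0639, n = 6) and 0.51 among LKO livers (exact permutation p = 0.307, n = 6). The slope was 0.34 (SE 0.13, limma p = 0.0225, n = 12, adjusted p = 0.999). It was 0.19 without LKO 1 (limma p = 0.158, n = 11), 0.31 without Floxed 1 (limma p = 0.0568, n = 11), and 0.37, still called, without Floxed 4 (limma p = 0.0357, n = 11). With slide as a term it was 0.33 and not called (limma p = 0.0555, n = 12). The correlation was 0.40 without LKO 1 and Floxed 4, the 2 livers farthest from the Egr1 median, whose loss also narrows the range of Egr1. Of these 2 livers, LKO 1 left out alone took away the call of the slope, and Floxed 4 left out alone did not.

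Ier2 had r = 0.60 (permutation p = 0.0389) and rho = 0.72 (permutation p = 0.0110), with 1.39% of genes at least as high. It was 0.81 among LKO livers (exact permutation p = 0.0542, n = 6) and -0.12 among Floxed livers (exact permutation p = 0.833, n = 6). A test of the difference between the slopes of the genotypes gave 0.24 (SE 0.13, limma p = 0.102, n = 12). The called difference of Ier2 between the genotypes thus stood beside a slope within genotypes of 0.082 that was not called (limma p = 0.280, n = 12). Without Floxed 1 that slope was 0.15 and called (limma p = 0.0206, n = 11), and without LKO 1 it was 0.021.

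Fos had r = 0.52 (permutation p = 0.0822) and rho = 0.24 (permutation p = 0.456), and Atf3 r = 0.40 (permutation p = 0.202) and rho = 0.028 (permutation p = 0.937). For both the ranks gave less than the values, and without the 2 farthest livers r was 0.32 for Fos and -0.14 for Atf3. Dusp1 had r = 0.31 (permutation p = 0.324) and rho = 0.028 (permutation p = 0.940), and Fosb r = 0.12 (permutation p = 0.699). The shares of genes at least as high were 3.35% for Fos, 8.46% for Atf3, 14.6% for Dusp1 and 35.7% for Fosb. These are 9 relations, and their permutation p-values are unadjusted. The permutations over all livers ran across both genotypes, so these r and p-values include any difference between the genotypes.

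**Figure D5:**
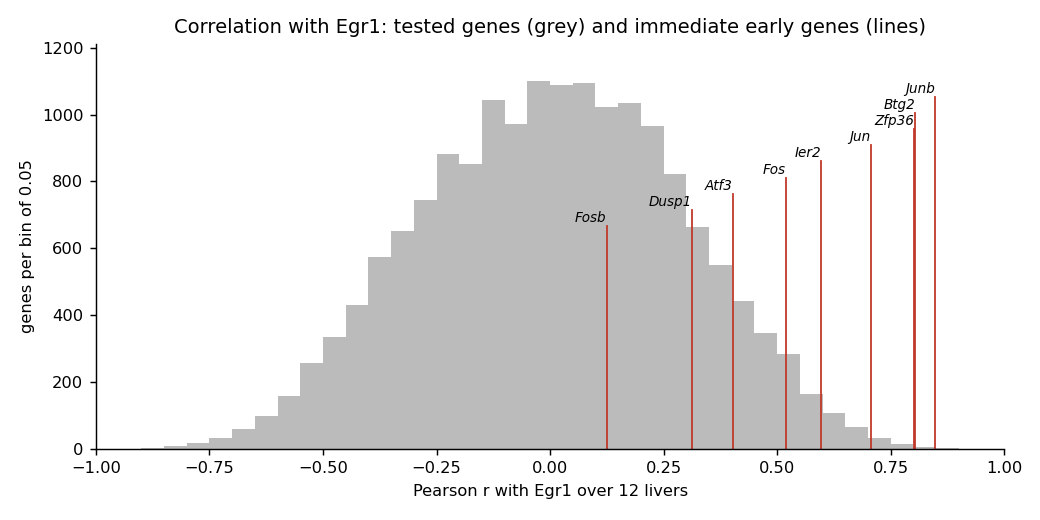
Number of tested genes (grey bars, vertical axis) by Pearson r with Egr1 over 12 livers (horizontal axis), with a red line at the r of each of the 9 other immediate early genes. Junb, Btg2 and Zfp36 lie at the right edge, at 0.80 to 0.85, and Fosb, at 0.12, lies within the bulk of genes.

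The median r of the 9 genes was 0.49 once genotype means were removed and 0.54 once slide means were removed. Without the livers labelled LKO 1 and LKO 2 it was 0.44, and 2 of the 8 genes kept a called slope, Junb with 0.30 (limma p = 0.00655, n = 10) and Zfp36 with 0.35 (limma p = 0.0212, n = 10), against 2.74% of genes with a called positive slope. Leaving out Floxed 1 and LKO 1 gave r of 0.79 for Junb, 0.80 for Zfp36, 0.72 for Ier2, 0.71 for Btg2, 0.50 for Jun, 0.43 for Fosb, 0.26 for Fos, 0.049 for Dusp1 and -0.40 for Atf3. Junb and Zfp36 kept a called slope, of 0.36 and 0.22, while the slope of Btg2 was 0.069 (limma p = 0.292, n = 10) and that of Jun 0.11 (limma p = 0.432, n = 10), neither of them called. The slope differed between the genotypes for 0.633% of genes and for none of the 9, the smallest p among them being that of Ier2.

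Over the 45 pairs that the 10 genes form, 42 had a positive r, with a median of 0.55 and a range from -0.33 to 0.89. The highest was that of Jun and Btg2 at 0.89, followed by Btg2 and Zfp36 at 0.89 and Egr1 and Junb at 0.85. Fos was closest to Zfp36 at 0.84, Jun at 0.82, Btg2 at 0.81, Atf3 at 0.80 and Dusp1 at 0.78. Its correlation with Junb was 0.27 and with Fosb -0.20. All 3 negative pairs contained Fosb, whose median r with the others was 0.017. Ier2 also stood apart, with a median of 0.26 and its highest r, 0.65, with Junb. These pairs share the same 12 livers and are given with no test.

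Outside the group, the 5 named genes most like Egr1 by r over 12 livers were Hmgb2 at 0.81, Klf10 at 0.81, Scn11a at 0.81, Lmbr1l at 0.79 and Ifna12 at 0.78. Klf10 encodes a zinc finger factor induced by TGF-beta, and Hmgb2 a chromatin protein. The 5 with the lowest r were Hira at -0.87, Dcaf5 at -0.84, Nfya at -0.83, Egln3 at -0.82 and Fbxl18 at -0.80. Hira is a histone H3.3 chaperone, Nfya a subunit of the CCAAT-binding factor NF-Y, and Egln3 a prolyl hydroxylase of hypoxia-inducible factors.

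A list of 50 other early response genes gave 41 tested genes, of which 3 were called higher and 3 lower in LKO livers, with a median difference of -0.036. Of all genes, 4.92% were called higher and 3.43% lower. Higher were Ccn1 (also named Cyr61), a secreted matrix protein, by 0.51 (SE 0.18, adjusted p = 0.426), Nr4a1, an orphan nuclear receptor, by 0.99 (SE 0.42, adjusted p = 0.541), and Zfp36l1, a relative of Zfp36, by 0.39 (SE 0.14, adjusted p = 0.451). Lower were Per1, a clock gene that also responds to CREB, which fell by 1.15 (SE 0.27, adjusted p = 0.257), the orphan nuclear receptor Nr4a2, which fell by 0.66 (SE 0.29, adjusted p = 0.569), and the EGF receptor inhibitor Errfi1, which fell by 0.65 (SE 0.27, adjusted p = 0.541). The nearest relatives of Egr1 were faint. Egr3 was never above background, and Egr2 was so on 4 arrays.

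Over all genes 1.02% had a called positive slope on Egr1. In the list of other early response genes 4 had a called slope, all positive. Among them were Klf10 with 0.39 (SE 0.078, limma p = 0.000331, n = 12), Gadd45b, a growth arrest and DNA damage gene, with 0.51 (p = 0.00969) and Zfp36l2 with 0.21 (p = 0.0236). The median r of the list with Egr1 was 0.13. Nab2, a corepressor that Egr1 induces, had r = 0.57 and a slope of 0.20 that was not called (limma p = 0.0702, n = 12).

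The kinases and factors that lead to these genes gave 37 tested of 40 listed, of which 1 was called higher and 3 lower in LKO livers. Over all genes 8.35% were called, 4.92% higher and 3.43% lower. Elk4, a ternary complex factor, was higher by 0.36 (SE 0.16, adjusted p = 0.588). Spred1, an inhibitor of the Ras to ERK pathway, fell by 0.52 (SE 0.12, adjusted p = 0.257), the coactivator Ep300 fell by 0.49 (SE 0.13, adjusted p = 0.307) and the ERK-activated kinase Rps6ka3 fell by 0.32 (SE 0.12, adjusted p = 0.457). None of the 37 had a called slope on Egr1, against 2.88% of all genes, a share at which few calls among 37 genes arise. Their median r was -0.074.

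Genes induced by glucocorticoids and fasting gave 12 tested, with 1 called higher in LKO livers, Pdk4, an inhibitor of pyruvate dehydrogenase, by 1.05 (SE 0.27, adjusted p = 0.280). Another 2 of them had a called slope on Egr1, each with an adjusted p of 0.999. They were Mt1, a metallothionein, with 0.41 (limma p = 0.0119, n = 12) and Fkbp5, a cochaperone of the glucocorticoid receptor, with 0.21 (limma p = 0.0221). Over all genes 8.35% were called between the genotypes, and 2.88% had a called slope on Egr1. Of 9 heat shock genes, Bag3 had a negative slope of -0.21 (SE 0.090), and none differed between the genotypes. Of the clock genes, 4 of the Bmal1 phase and 6 of the Per and Dbp phase were tested, and 1 of the latter, Hlf, fell by 0.28 in LKO livers (SE 0.11, adjusted p = 0.490).

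Among markers of other cells, 2 of 4 tested neutrophil genes, S100a8 and S100a9, had a called positive slope on Egr1, against 1.02% of all genes. Their slopes were 0.25 and 0.26 (limma p = 0.0164 and p = 0.0135, n = 12, adjusted p = 0.999 for both). Without Floxed 1 and LKO 1 neither was called (limma p = 0.202 and p = 0.207, n = 10). The other 2, Camp and Retnlg, had slopes of -0.022 and -0.015 that were not called. The summed intensity of these 4 genes ranged from 859 to 1358 in Floxed and from 513 to 1102 in LKO livers, and Cxcr2, Mmp8 and Ngp were not above background on any array. Of 12 Kupffer cell and macrophage genes, 7 lymphocyte genes and 6 blood genes tested, none was called between the genotypes or with Egr1. Over all genes 8.35% were called between the genotypes, and 2.88% had a called slope. Pecam1 was called higher among 10 endothelial genes (0.70, adjusted p = 0.273), Cel higher among 4 acinar genes (0.54, adjusted p = 0.273) with Cela2a, Cpa1, Pnlip and Prss2 never above background, and Cftr lower among 3 cholangiocyte genes (-0.83, adjusted p = 0.592). Des had a negative slope among 11 stellate cell and fibroblast genes (-0.18, limma p = 0.0261, n = 12), and none of 2 adipocyte and 12 hepatocyte genes was called. Of the hepatocyte genes, Apoa2 and Serpina1a had the same normalized value on every array and could not be called. The part of these cells in the values of the immediate early genes was not tested.

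Among Floxed livers Egr1 was 9.98, 8.25, 7.99 and 7.25 on slide 1, and 10.11 and 9.11 on slide 2. Among LKO livers it was 11.85 and 9.47 on slide 2, and 11.20, 9.13, 10.08 and 10.10 on slide 3. The part of the slide in these values was not tested apart from the genotype. Intensity, probe number and position on the slide moved little with Egr1. Over 12 livers its r was -0.13 with the 75th percentile of intensity, 0.087 with the number of probes above background and -0.30 with the position on the slide, and it was -0.17 with Phgdh.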

How the data were processed

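Liver RNA of 12 mice was measured on single-color Agilent arrays. The methods and the labels name different RNA kits, and Feature Extraction is given as version 9.5.1.1 in the submitters' processing notes and 10.7.1.1 in the file headers. The authors deposited the processed intensity of each spot, corrected for background but without normalization across arrays, together with a quantile-normalized table. Control spots (1377 per array) were left out, the log2 processed intensity was quantile-normalized over 12 arrays, and outlier spots (0.298%) were treated as missing. A probe had to be marked well above background on each of the 12 arrays, the mark standing in for a detection p-value, and each gene took its brightest probe. Symbols came from RefSeq accessions, of which 94.3% matched.

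Genotypes were compared with limma 3.58.1 in R 4.3.3, called at an unadjusted p below 0.05 as in the methods, with Benjamini-Hochberg adjusted p over all genes. Slopes on Egr1 were fitted beside genotype. Single values were compared by a two-sided exact test over 924 arrangements, and correlations with 100000 permutations, or all pairings within a genotype (scipy). The code was tested on simulated data. Alternatives covered normalization, background correction, filter, outlier spots, probe choice, threshold, slide, replicate number and single livers. The 2 sets of livers left out together were added later. The members and the 17 lists were chosen with earlier results of these data known. Named genes are the members, Phgdh, the 5 highest and 5 lowest r with Egr1, and up to 4 genes per list by smallest p in each test. Nab2, Egr2, Egr3, Camp, Retnlg, Apoa2, Serpina1a and the genes of the clock lists except Hlf were named after their values were seen. The number of arrays limits the precision. The values of 1 further gene called with Egr1 are not reported here.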

Additional observations from a re-analysis of the deposited data

Results flagged for a closer look

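In 20 groups of 6 livers, the highest or the lowest liver of a gene stood apart by Dixon's criterion in 3, where chance gives about 1 in 20 groups. Atf3 in the liver labelled LKO 1 had a log2 normalized intensity of 8.03, with the next LKO liver at 5.70. Btg2 in the same liver was at 7.98, with the next LKO liver at 6.68. Btg2 in Floxed 1 was at 6.90, with the next Floxed liver at 5.91. No slope on Egr1 differed between the genotypes for any of the 9 other immediate early genes at an unadjusted p below 0.05, the smallest p being 0.102.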

How the results depend on the processing

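The counts below set 1413 genes and 3 immediate early genes called between the genotypes, and 487 genes and 4 immediate early genes called with Egr1, against each alternative. Without a filter on dim probes 2791 genes were called between the genotypes and 1040 with Egr1. With slide as a fixed block 317 genes and 1 immediate early gene were called, Egr1 differed by 1.06 and was not called, 970 genes were called with Egr1, and 280 had slopes that differed between genotypes, where 0.633% of genes did without the block. Within slide 2 alone 512 genes and 1 immediate early gene, Dusp1, were called, and Egr1 differed by 1.06 and was not called. At an adjusted p, 0 genes were called in either comparison by limma, Egr1 keeping its difference of 1.53 (adjusted p = 0.440). The methods' t-test called 1236 genes and 3 immediate early genes at its unadjusted threshold, and 1 gene and 0 immediate early genes after adjustment, Egr1 keeping its difference of 1.53. With a log2 change of 1 or more required in size, 91 genes and 1 immediate early gene were called.

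The labels do not say that a replicate number marks a shared litter, although the animal numbers in the titles are adjacent for each number and the controls were littermates. The numbers were not taken to pair the mice, and whether they do is not known. Correlations of 1 mouse with 1 mouse cannot decide it. Deviations of mice with the same number correlated between -0.24 and 0.32, above 0.1 for 3 of 6 numbers, and 1 of 6 LKO and 2 of 6 Floxed livers correlated best with their own number. With the replicate block 5 immediate early genes (Egr1, Ier2, Btg2, Jun and Zfp36) of 1428 genes were called between the genotypes and 1 (Junb) of 439 with Egr1. The slopes of Btg2 and Zfp36 were 0.031 and 0.27, not called, and slopes on Egr1 were -0.24 for Fos, -0.10 for Jun, -0.043 for Atf3 and -0.35 for Dusp1.

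Without the 2 livers farthest from the Egr1 median 2 immediate early genes of 348 genes were called with Egr1, and slopes were 0.023 for Fosb and -0.047 for Atf3. Without Floxed 1 and LKO 1 together 2 of 445 genes called with Egr1 were immediate early genes, and slopes were -0.038 for Fos, 0.053 for Fosb, -0.25 for Atf3 and -0.17 for Dusp1. Without LKO 1 and LKO 2 together 2173 genes and 5 immediate early genes were called between the genotypes. After adjustment 571 genes and 0 immediate early genes passed in that comparison. With Egr1, 822 genes and 2 immediate early genes were called without these 2 livers. The Atf3 difference was then -0.17, with slopes of 0.017 for Fosb and -0.064 for Atf3. The difference of Fosb was -0.095 with slide as a fixed block and within slide 2, where its slope with the block was 0.030, and its slope was 0.041 without the genotype term.

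With single livers left out, genes called with Egr1 ranged from 228 (without Floxed 1) to 1011 (without Floxed 5), with 750 without LKO 1, immediate early genes called with Egr1 from 2 (without LKO 1) to 4, and genes with differing slopes from 81 to 337. The slope of Fosb ranged from -0.11 to 0.059, the difference of Atf3 from -0.17 to 0.55 and its slope from -0.061 to 0.49, and the difference of Dusp1 from -0.0071 (without Floxed 2) to 0.60. The cause of these shifts was not tested. The Egr1 difference stayed called without each single liver, from 1.22 to 1.79, and in 13 of 17 other alternatives. The exceptions were slide as a fixed block, slide 2 alone, and the adjusted p of limma and of the t-test. Settings of filter, outlier spots and probe choice left the difference at 1.53 and are no check of its size. Egr1 has 1 probe, well above background on all 12 arrays. The slope of Junb was called in every alternative run except the adjusted p. A second Egr1 probe could not be tried, since 1 probe was found, and slide as a random block gives no correlation.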
